A study of Brassica rapa subsp. pekinensis with 4 samples.

Results

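The genes described here are the Chinese cabbage (*Brassica rapa* subsp. *pekinensis*) copies of the *FLOWERING LOCUS T* (*FT*) and *TERMINAL FLOWER 1* (*TFL1*) family and of *FD*, the transcription factor with which the proteins of this family act. A gene was included when the deposited table matched it to 1 of 8 *Arabidopsis thaliana* loci, namely *FT* (AT1G65480), *TWIN SISTER OF FT* (*TSF*, AT4G20370), *TFL1* (AT5G03840), *ATC* (AT2G27550), *BROTHER OF FT AND TFL1* (*BFT*, AT5G62040), *MOTHER OF FT AND TFL1* (*MFT*, AT1G18100), *FD* (AT4G35900) and *FD PARALOG* (*FDP*, AT2G17770). Of the 36698 genes in the table, 17 were included: 1 copy of *FT*, 2 of *TSF*, 3 of *TFL1*, 3 of *ATC*, 1 of *BFT*, 2 of *MFT*, 3 of *FD* and 2 of *FDP*. Copies are given by their Bra identifier with the name of the Arabidopsis match, which rests on the table alone.

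FT and TSF are florigens, small proteins made in the companion cells of the leaf phloem that travel to the shoot apex. There they bind FD, a bZIP transcription factor, through 14-3-3 proteins, and the complex switches on genes of flowering and floral identity such as *SOC1*, *FUL* and *AP1*. TFL1 binds the same partner and represses those genes, so that the shoot apex keeps producing shoot rather than flowers. In Arabidopsis and its relatives that need cold to flower, the repressor FLC keeps *FT* and *SOC1* low until vernalization, the prolonged cold, silences it.

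RNA-Seq libraries of shoots of the inbred line “4004” were compared between plants vernalized for 35 days (35D Ver) and plants without vernalization (0D Ver), with 2 libraries each and shoots of 5 plants per library. All plants were raised at 23 °C with 16 h of light, and the cold was given at 5 °C with 12 h of light. The 35D Ver plants were 7 weeks old and the 0D Ver plants 2 weeks old, so cold, age and the day length of the last weeks cannot be told apart. Shoots hold leaves, veins and the apex together, and in such bulk tissue fewer cells of a type and less RNA per cell cannot be told apart either.

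The deposited counts summed to 23428420 and 22709649 in the 35D Ver libraries and to 21315738 and 17221386 in the 0D Ver libraries, so 1 read stood for 0.0427 to 0.0581 CPM (counts scaled to the library total). Markers of green shoot tissue (*RBCS1A*, *LHCB1.3*, *PSBO1* and *RCA*) summed to 879603 and 702793 normalized counts under 35D Ver and to 613392 and 597182 under 0D Ver, whereas the 3 matched root markers summed to 12.8 and 14.6 under 35D Ver and to 12.8 and 13.4 under 0D Ver. The green shoot markers did not move together, with log2 fold changes from -0.20 (*PSBO1*) to 0.57 (*RCA*). Markers of 2 cell types that make or receive florigen differed between the conditions. The phloem companion cell markers *SUC2*, *AHA3*, *SULTR2;1* and *APL* summed to 11986 and 13807 under 35D Ver and to 19605 and 19046 under 0D Ver. All 4 fell, *AHA3* with an adjusted p of 0.0331 that was lost when any of the 4 libraries was left out (up to 0.175). The shoot meristem markers *STM*, *KNAT1* and *WUS* summed to 44.0 and 18.2 under 35D Ver and to 2.94 and 6.10 under 0D Ver, with *WUS* at 0 or 1 read in every library. Throughout, a normalized count is the deposited count divided by the size factor of its library. A gene rose or fell when its adjusted p was below 0.05 in a limma fit over 29691 genes on log2(normalized count + 1). Markers and other sums over the copies of a locus were tested in a like fit over 16977 summed loci. The lowest deposited value was 1 in each library, so reads are given as the deposited value minus 1, and intervals on ratios of reads cover counting error only.

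Transcripts of the florigen genes were scarce in these shoots, and nearly all of their reads came from the 35D Ver libraries. *FT* (AT1G65480, Bra022475) had 19 and 7 reads under 35D Ver, against 2 and 0 reads under 0D Ver. The copy Bra004117 of *TSF* (AT4G20370) had 22 and 7 reads under 35D Ver, against 2 and 0 reads under 0D Ver. For either gene the 35D Ver libraries both exceeded the 0D Ver libraries, and replicate 1 of 35D Ver was the highest. After scaling for depth, the ratio of 35D Ver to 0D Ver reads was 10.9 for *FT* (95% interval 2.73 to 94.9) and 12.2 for Bra004117 (3.08 to 105). The other *TSF* copy, Bra015710, had 1 and 0 reads under 35D Ver and 0 and 0 reads under 0D Ver, at or under the floor of 3 reads in every library, which is 0.128 to 0.174 CPM. *FT* and Bra004117 had almost the same value in each library, and how reads that map to both were counted is not given in the sources used here.

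None of these 3 copies had enough reads for the main test. With the filter on low counts removed, 16.7% of all 36698 genes rose. *FT* then had a log2 fold change of 2.1 (SE 0.47, adjusted p = 0.00694, limma) and Bra004117 of 2.19 (SE 0.50, adjusted p = 0.00826), but neither kept its call without 0D Ver replicate 1 (adjusted p = 0.195 and 0.215) or without 0D Ver replicate 2 (adjusted p = 0.306 and 0.326). The size of both changes moved with the 35D Ver library used, to 1.5 for either gene without replicate 1 and to 2.70 (*FT*) and 2.89 (Bra004117) without replicate 2. Summed as 1 feature, a choice made after their values were seen, the *FT* and *TSF* copies had 42 and 14 reads under 35D Ver. Under 0D Ver they had 4 and 0 reads, a ratio of 11.8 (4.35 to 44.7). Reads that map to both genes may be in this sum more than once, which would make its interval too narrow. This sum passed the filter only through the 35D Ver libraries, and its log2 fold change was 2.12 (SE 0.50, adjusted p = 0.0117), or 3.39 (adjusted p = 0.0152) with 1 subtracted from every deposited value. Of the 4 companion cell markers, all lower under 35D Ver, *AHA3* fell least (log2 fold change -0.34). *SUC2*, a sucrose transporter gene of the cells that make FT, fell most (log2 fold change -1.01, adjusted p = 0.00555, limma). It was at 2888 and 4523 normalized counts under 35D Ver and 7053 and 7548 under 0D Ver. The part of companion cells in the values of *FT* and *TSF* was not tested.

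**Figure D1:**
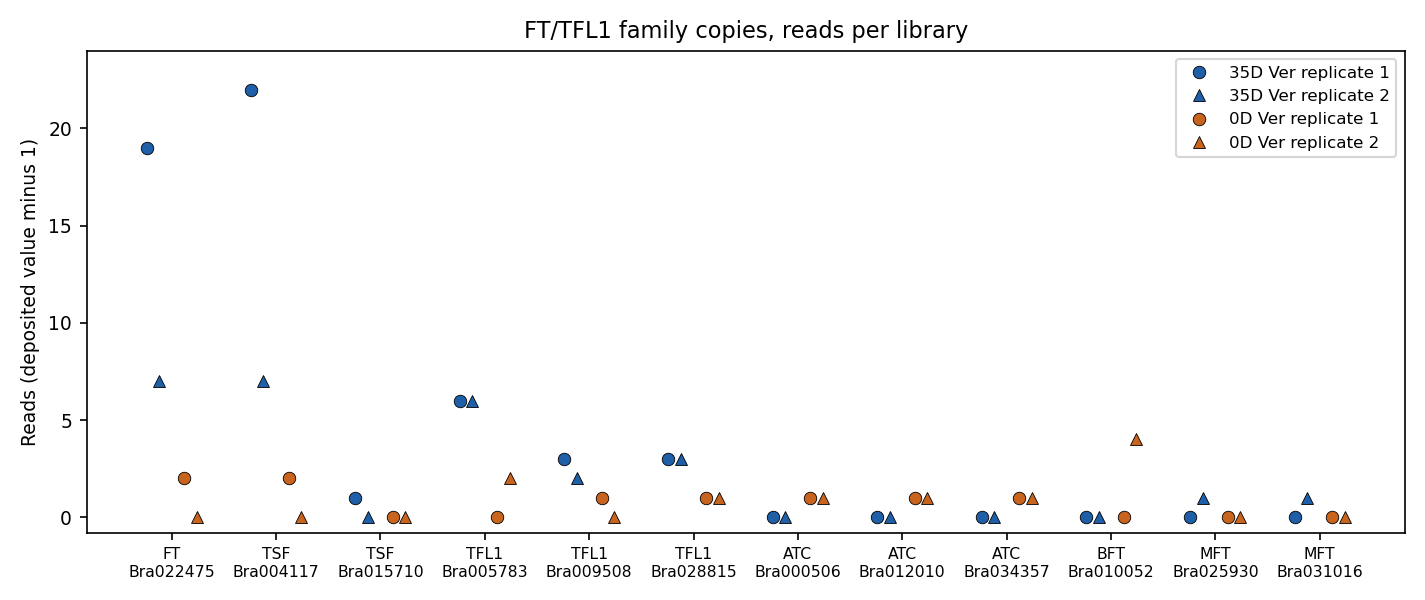
Reads per library (deposited value minus 1, vertical axis) of the 12 copies of the *FT*/*TFL1* family (horizontal axis), with circles for replicate 1 and triangles for replicate 2 of 35D Ver and of 0D Ver. *FT* and the *TSF* copy Bra004117 reached 19 and 22 reads in 35D Ver replicate 1, and no copy had more than 4 reads in a 0D Ver library.

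The antagonist *TFL1* (AT5G03840) had few reads too, and its 3 copies lay on the same side as *FT*. Bra005783 had 6 and 6 reads under 35D Ver, against 0 and 2 under 0D Ver, a ratio of 5.04 (1.12 to 46.4). Bra009508 had 3 and 2 reads under 35D Ver and 1 and 0 under 0D Ver, and Bra028815 had 3 and 3 under 35D Ver and 1 and 1 under 0D Ver, so these 2 copies stayed at or under the floor of 3 reads. In sum, the *TFL1* copies had 12 and 11 reads under 35D Ver and 2 and 3 reads under 0D Ver, a ratio of 3.86 (1.44 to 13.0). The conditions did not overlap, but the log2 fold change of this sum, 1.02 (SE 0.37), missed the threshold (adjusted p = 0.0569, limma), and the sum passed the filter only through the 35D Ver libraries. Over loci summed in this way, 19.4% of 16977 rose. Bra005783 was called without the filter (log2 fold change 1.28, SE 0.43, adjusted p = 0.042) but not when 0D Ver replicate 1 (adjusted p = 0.213) or replicate 2 (adjusted p = 0.129) was also left out.

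*TFL1* is known in Arabidopsis as a gene of the shoot meristem, and the meristem markers had few reads in the same libraries. *KNAT1*, a homeobox gene of the meristem, was at 26.6 and 12.8 normalized counts under 35D Ver and 0.981 and 2.44 under 0D Ver (log2 fold change 2.90, adjusted p = 0.00282), having passed the filter only through the 35D Ver libraries. *STM*, which maintains the meristem, was at 15.6 and 4.56 under 35D Ver and 0.981 and 2.44 under 0D Ver and was not tested. As for *FT* and *TSF*, 35D Ver replicate 1 was the highest library for both markers, while *TFL1* had 12 and 11 reads in the 2 replicates. The part of meristem and companion cells in the values of *FT*, *TSF* and *TFL1* was not tested.

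The remaining members of the family were at the limit of detection. *ATC*, a relative of *TFL1* that delays flowering in Arabidopsis, had 0 and 0 reads under 35D Ver and 1 and 1 reads under 0D Ver for each of its 3 copies (Bra000506, Bra012010 and Bra034357). *BFT* (Bra010052), another repressor in Arabidopsis, had 0 and 0 reads under 35D Ver and 0 and 4 under 0D Ver, so all its reads came from 1 library. *MFT*, which acts in seed germination in Arabidopsis, had 0 and 1 reads under 35D Ver and 0 and 0 under 0D Ver for each of Bra025930 and Bra031016. The 3 *ATC* copies had identical values, 3 reads in sum in each 0D Ver library, and may share reads. A difference in any of these 6 copies was not detectable at this depth. Of the 6 copies of *FT*, *TSF* and *TFL1*, 5 had both 35D Ver libraries above both 0D Ver libraries, a pattern that 32.5% of all listed genes showed.

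*FD* (AT4G35900), the partner of both FT and TFL1, fell upon vernalization in all 3 copies. Bra010504 had 36.6 and 41.9 normalized counts under 35D Ver, against 121 and 116 under 0D Ver. Bra011648 had 50.4 and 68.4 under 35D Ver, against 106 and 110 under 0D Ver. Bra017735 had 27.5 and 24.6 under 35D Ver, against 58.9 and 52.5 under 0D Ver. For each copy both 35D Ver libraries lay below both 0D Ver libraries, and the replicates of a condition were close, except that Bra011648 varied more under 35D Ver (59.4 ± 12.7, against 108 ± 2.74 under 0D Ver; SD, n = 2 each). The log2 fold change was -1.57 for Bra010504 (SE 0.18, adjusted p = 0.000368), -0.87 for Bra011648 (SE 0.20, adjusted p = 0.00916) and -1.07 for Bra017735 (SE 0.22, adjusted p = 0.00544), in a fit in which 20.5% of all tested genes fell. The median log2 fold change of all tested genes, called or not, was -0.01.

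Summed over the 3 copies, *FD* reached 114 and 135 normalized counts under 35D Ver and 286 and 278 under 0D Ver (125 ± 14.4 and 282 ± 5.14, SD, n = 2 each). The log2 fold change of the sum was -1.17 (SE 0.15, adjusted p = 0.000642, limma), where 21% of all summed loci fell. In reads this was 267 under 35D Ver against 513 under 0D Ver, a ratio of 0.437 (0.376 to 0.508). If each read was counted once, this ratio does not depend on how reads were divided between the copies. The study's methods ask of flowering time genes, beside the adjusted p, a log2 fold change of 1 or more in either direction and over 50 normalized counts. The count was taken here as the mean of the higher condition, and limma stood in for the study's DESeq. For Bra017735 this mean was 55.7 under 0D Ver, against 26.0 under 35D Ver. On the lower side, Bra010504 and Bra017735 met the rule, as did 5.56% of all tested genes. No member met it on the higher side, where 4.1% did, but no copy of *FT*, *TSF* or *TFL1* was in that fit. The *FD* values fell while the meristem marker sum was higher under 35D Ver and the companion cell marker sum was lower. The part of either cell type in the change of *FD* was not tested.

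**Figure D2:**
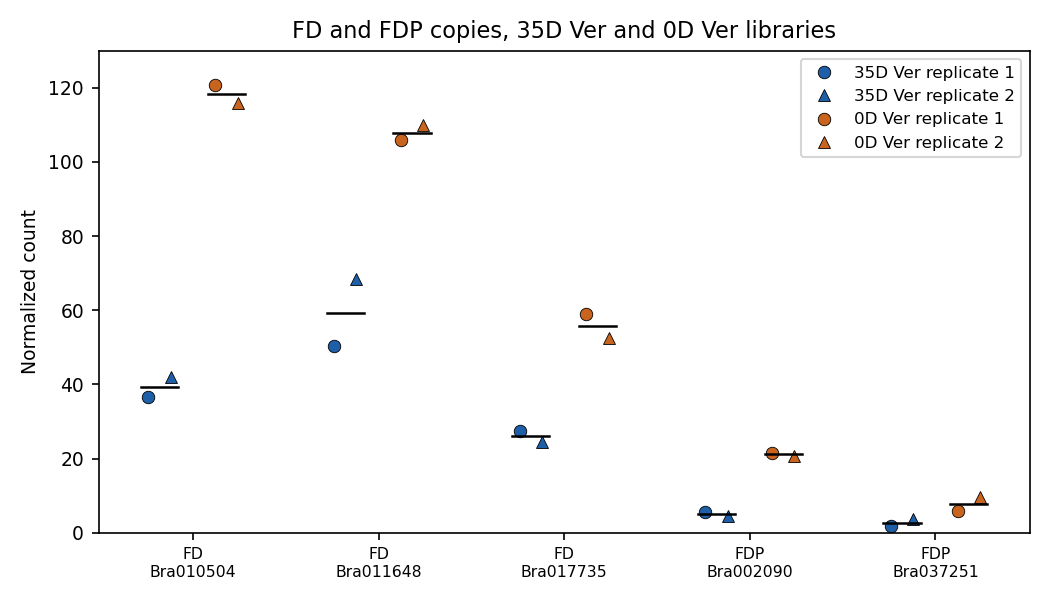
Normalized counts (vertical axis) of the 3 *FD* and 2 *FDP* copies (horizontal axis) in each library, with circles for replicate 1 and triangles for replicate 2 of 35D Ver (left of each copy) and of 0D Ver (right), and horizontal lines for the means. Every copy has both 35D Ver values below both 0D Ver values, and Bra010504 has the widest gap, its 35D Ver mean being 39.3 and its 0D Ver mean 118.

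The 3 *FD* copies were also compared with each other within each library. Bra010504 held 31.5% of all *FD* reads under 35D Ver (exact 95% interval 25.9% to 37.4%) and 42.1% under 0D Ver (37.8% to 46.5%). Bra011648 held 47.9% under 35D Ver (41.8% to 54.1%) and 38.2% under 0D Ver (34.0% to 42.6%). The intervals of Bra010504 and Bra011648 under 0D Ver overlap. All these intervals pool the reads of the libraries of a condition and cover counting error only. Bra017735 held 20.6% under 35D Ver and 19.7% under 0D Ver. The log2 fold change of Bra010504 was lower than that of Bra011648 by a difference of -0.70 (95% interval -1.06 to -0.35), which missed the threshold after adjustment over 16925 pairs of copies (adjusted p = 0.065, limma on the ratio within libraries), and 7.3% of these pairs passed. Bra010504 minus Bra017735 gave -0.50 (-0.97 to -0.04, adjusted p = 0.142) and Bra011648 minus Bra017735 gave 0.20 (-0.59 to 0.99, adjusted p = 0.648), an interval that leaves room for a difference of either sign.

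*FDP* (AT2G17770), the closest relative of *FD* in Arabidopsis, had fewer reads and lay on the same side. Bra002090 had 5 and 4 reads under 35D Ver and 21 and 16 under 0D Ver, a ratio of 0.204 (0.087 to 0.431). It passed the filter only through the 0D Ver libraries and fell with a log2 fold change of -1.88 (SE 0.32, adjusted p = 0.00214, limma). Bra037251 had 1 and 3 reads under 35D Ver and 5 and 7 under 0D Ver, a ratio of 0.280 (0.066 to 0.924), and was too low for the main test. Without the filter, where 17.1% of all genes fell, it had a log2 fold change of -1.25 (adjusted p = 0.032), a call that was lost without 35D Ver replicate 1 (adjusted p = 0.168), 0D Ver replicate 1 (0.198) or 0D Ver replicate 2 (0.347). Together the *FDP* copies had 6 and 7 reads under 35D Ver and 26 and 23 under 0D Ver, a ratio of 0.223 (0.111 to 0.417). All 5 copies of *FD* and *FDP* had both 35D Ver libraries below both 0D Ver libraries, as had 36.3% of all listed genes. Of the 17 members, 4 passed the filter on low counts and 13 did not. The 4 were the 3 *FD* copies and Bra002090, and all fell, against 20.5% of all tested genes. No copy of *FT*, *TSF* or *TFL1* was in that fit, so it could not show a rise in them (20.1% of all tested genes rose).

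**Figure D3:**
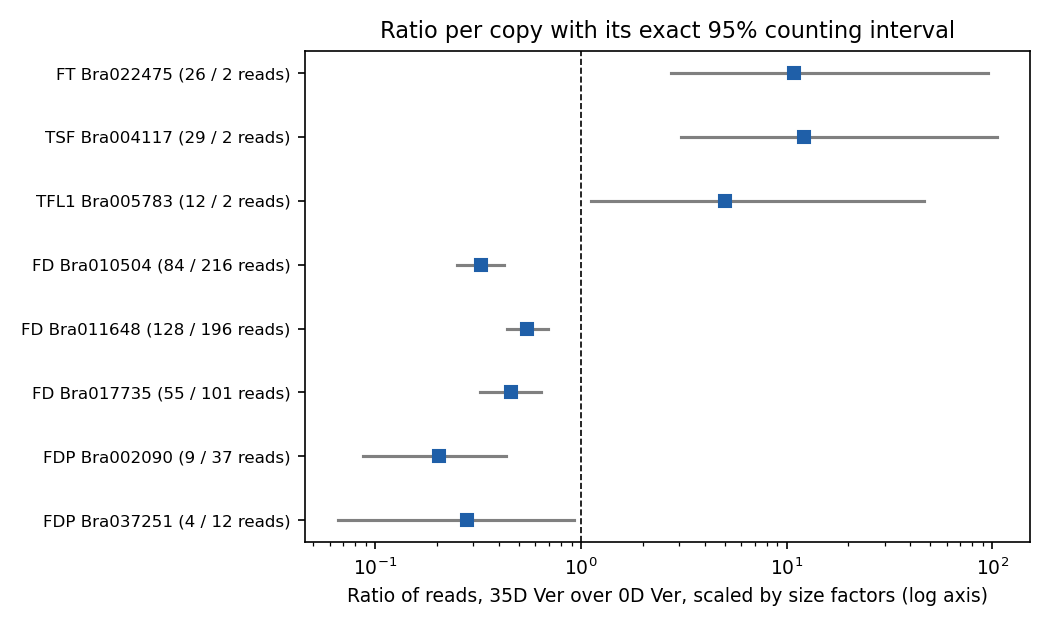
Ratio of reads, 35D Ver over 0D Ver and scaled by size factors (horizontal log axis), for the 8 copies with more than 3 reads in some library and with reads in both conditions, with bars for the exact 95% counting interval and the reads of 35D Ver and 0D Ver beside each name. The copies of *FT*, *TSF* and *TFL1* lie right of the dashed line at 1, between 5.04 and 12.2, and the copies of *FD* and *FDP* lie left of it, between 0.204 and 0.549.

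Proteins that carry FT out of the companion cells or join it to FD formed a list of 20 loci, of which 16 had matches, with 30 of 34 genes tested. Here 5 genes rose, 4 fell and 21 did not pass, so 30% were called, against 40.6% of all tested genes, and the median log2 fold change was 0.11. The genes that fell were of the export route. *QKY* (Bra003788), which encodes a membrane protein that takes part in FT export in Arabidopsis, had 148 and 119 normalized counts under 35D Ver and 363 and 266 under 0D Ver (log2 fold change -1.22, SE 0.18, adjusted p = 0.00126). *NaKR1*, whose product aids the movement of FT through the phloem, fell in both copies, with 186 and 140 normalized counts for Bra028868 under 35D Ver and 340 and 326 under 0D Ver (log2 fold change -1.04, SE 0.16, adjusted p = 0.00128). *FTIP1* (Bra005915), which encodes another FT export protein, had a log2 fold change of -0.41 (adjusted p = 0.0242), a call that was lost without either 35D Ver library or without 0D Ver replicate 1 (up to 0.14). These genes moved in the direction of the companion cell markers, whose part in them was not tested.

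*SYP121*, the membrane fusion protein that works with QKY, passed the test in 1 of its 2 copies. Bra034808 rose, with 414 and 400 normalized counts under 35D Ver and 233 and 184 under 0D Ver (log2 fold change 0.97, SE 0.14, adjusted p = 0.00107), while Bra001422 overlapped between the conditions (570 and 475 under 35D Ver, 597 and 476 under 0D Ver). Among the 14-3-3 genes, both *GRF3* copies rose, Bra028409 with 4289 and 3930 normalized counts under 35D Ver and 2366 and 2609 under 0D Ver (log2 fold change 0.72, SE 0.11, adjusted p = 0.00134). The 5 *GRF2* copies did not pass. Of the kinases that phosphorylate FD in Arabidopsis, *CPK4* (Bra000684) rose, with 807 and 799 normalized counts under 35D Ver and 514 and 507 under 0D Ver, and neither *CPK6* copy passed. The 4 copies of *AREB3*, a bZIP gene of the same group as *FD*, did not pass, with log2 fold changes of -0.17 to 0.31.

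Among regulators of *FT* transcription, 7 of 22 tested genes rose and 9 fell, so 72.7% were called, against 40.6% of all tested genes (20.1% higher and 20.5% lower), and the median log2 fold change was 0.04. *FLC* fell in all 4 copies. Bra009055 had 37.6 and 34.6 normalized counts under 35D Ver, against 626 and 735 under 0D Ver (log2 fold change -4.20, SE 0.15, adjusted p = 1.14e-06), and Bra006051 had 70.5 and 100.3 under 35D Ver, against 1400 and 1606 under 0D Ver (-4.14, SE 0.17, adjusted p = 2.51e-06). *TEM1*, a repressor of *FT*, fell in both copies, with log2 fold changes of -1.05 and -0.81. *SVP*, a repressor that acts with FLC, was higher in both copies, with log2 fold changes of 0.45 (Bra030228) and 0.30 (Bra038511), although the call of Bra038511 was lost in 7 of 12 alternative fits. Other repressors had copies that rose, namely *TOE1* (Bra000487, log2 fold change 0.60, adjusted p = 0.00327), *TOE2* (Bra002510, 0.46, adjusted p = 0.0251) and *CDF1* (Bra029261, 0.54, adjusted p = 0.028), each with a further copy that did not pass, and *SMZ* (Bra007123) fell (-0.92, adjusted p = 0.0235). *LHP1*, also on this list, fell in Bra023629 (-1.03, adjusted p = 0.00763). Its copy Bra013958 did not pass (-0.04, adjusted p = 0.851), and Bra006417 was too low to test. Of the activators, *CIB1* fell in Bra011540 (-0.67, adjusted p = 0.0243) and did not pass in Bra034636 (-0.62, adjusted p = 0.0877). Leaving out 1 library ended the call of *TOE2* (without 35D Ver replicate 1 or either 0D Ver library, adjusted p up to 0.122), *CDF1* (without 35D Ver replicate 2 or either 0D Ver library, up to 0.154), *SMZ* (without 35D Ver replicate 1 or 0D Ver replicate 2, up to 0.131) and *CIB1* (without 35D Ver replicate 1 or 0D Ver replicate 1, up to 0.121), but not of Bra000487. *CO* (Bra008669) rose, with 55.9 and 52.0 normalized counts under 35D Ver and 26.5 and 17.1 under 0D Ver (log2 fold change 1.3, SE 0.27, adjusted p = 0.00532). *GI* (Bra024536), the clock gene upstream of *CO*, had 7545 and 7618 under 35D Ver and 4065 and 3383 under 0D Ver (1.03, SE 0.12, adjusted p = 0.000413). Expression of *CO* and *GI* follows day length and time of day, and light lasted 12 h in the cold of 35D Ver and 16 h under 0D Ver, so cold and day length cannot be told apart here.

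Of the genes on which the FT and FD complex acts, 17 of 23 were tested, and 6 rose, 2 fell and 9 did not pass (median log2 fold change 0.45). The 47.1% called was near the 40.6% of all tested genes. Of the 6 that rose, 2 copies of *SPL5* passed the filter on low counts only through the 35D Ver libraries. With at least 10 counts required in every library, 4 targets rose and 1 fell. *SOC1*, the floral integrator, rose in all 3 copies. Bra004928 had 1130 and 836 normalized counts under 35D Ver, against 80.5 and 80.6 under 0D Ver (log2 fold change 3.58, SE 0.16, adjusted p = 2.65e-06), and Bra000393 had 892 and 644 under 35D Ver, against 61.8 and 72.0 under 0D Ver (3.49, SE 0.18, adjusted p = 5.11e-06). *AGL24* (Bra019221), which acts with *SOC1*, rose by 0.88 on the log2 scale (adjusted p = 0.000567). The genes that fell were 1 copy each of *SPL3* and *SPL5*, which encode transcription factors that promote the transition to flowering. Another 2 *SPL5* copies rose, Bra021094 by 1.58 and Bra027265 by 1.67 on the log2 scale. The *SPL5* copy that fell, Bra038101 (-1.51), ranged from -2.05 to -0.92 over the alternative fits. The *SPL3* copy Bra021880 had 23.8 and 16.4 normalized counts under 35D Ver and 44.2 and 39.1 under 0D Ver (adjusted p = 0.0151), and was not called without 35D Ver replicate 2 or without 0D Ver replicate 1 (up to 0.0799). The 3 *FUL* copies lay higher in both 35D Ver libraries but did not pass (log2 fold changes of 0.45 to 0.77, adjusted p of 0.0534 to 0.241), and neither did the 3 *SEP3* copies (-0.51 to -0.36). The floral identity genes were too low to test. *AP1* had 1 to 7 reads in the 35D Ver libraries and 3 to 6 reads in the 0D Ver libraries over its 3 copies. *LFY* had 1 and 1 reads for Bra019619 and 3 and 2 for Bra029305 under 35D Ver, against 0 reads in both 0D Ver libraries for either copy. *CAL* (Bra011021) had 2 and 2 reads under 35D Ver and 0 and 1 under 0D Ver.

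**Figure D4:**
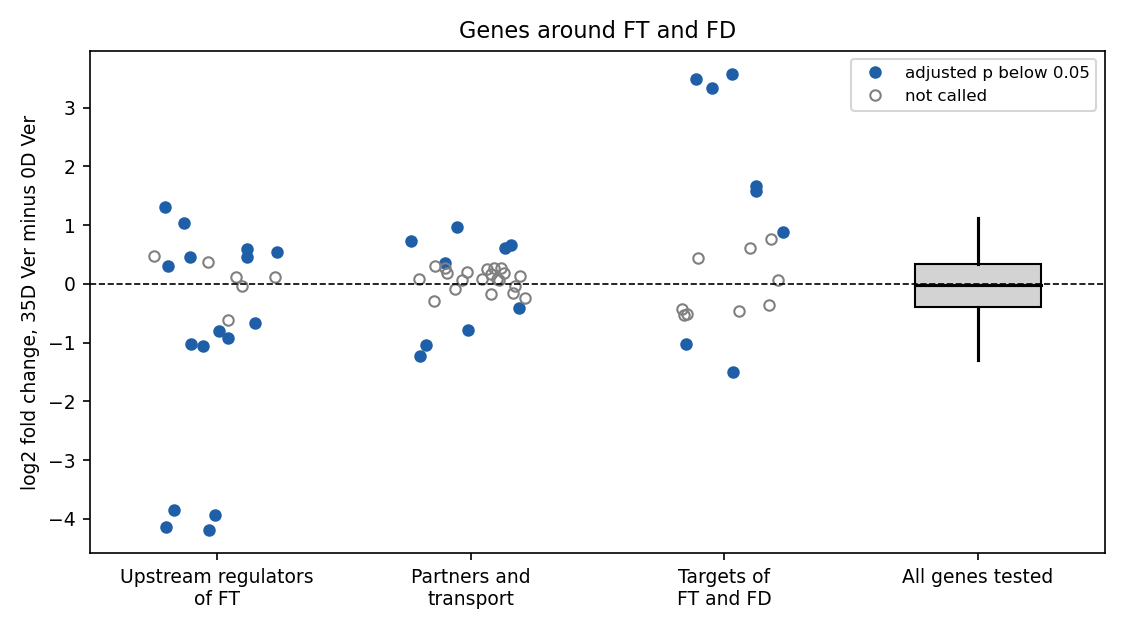
log2 fold change, 35D Ver minus 0D Ver (vertical axis), of each tested gene among the upstream regulators of *FT* (22 genes), the partners and transport proteins (30) and the targets (17), with filled circles where the adjusted p was below 0.05 and open circles elsewhere, and, for all 29691 tested genes, a box from the 25th to the 75th percentile with whiskers to the 5th and 95th. The 4 *FLC* copies lie near -4, the 3 *SOC1* copies between 3.33 and 3.58, and most partners lie within the box of all genes, which runs from -0.39 to 0.34.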

How the data were processed

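Poly(A) RNA of shoots was sequenced on an Illumina HiSeq, with 2 libraries under 35D Ver and 2 under 0D Ver, grouped by their labels. Another replicate of line “4004” and the line “50” were not analysed here. By the study's methods, the authors used SolexaQA for trimming and Bowtie2 for mapping to the BRAD gene set of *B. rapa*, and counted reads per gene; the submitters' processing notes also name edgeR. The deposited counts are unscaled whole numbers with commas inside, which were stripped. Their lowest value is 1 and no gene is at 1 in all libraries, so 1 appears to have been added. They were therefore recorded as another unit, and limma took the place of a count test.

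Size factors (1.09 and 1.10 for 35D Ver, 1.02 and 0.82 for 0D Ver) came from a TMM scaling coded in R 4.3.3, trimming 0.3 of log ratios and 0.05 of intensities. Genes kept had at least 10 counts at the median depth in 2 or more libraries and at least 15 in all. limma 3.58.1 (trend, robust) was fitted to log2(normalized count + 1), which understates changes of low genes, with Benjamini-Hochberg adjustment over all kept genes, and was tested on simulated data. Loci were summed over copies, and pairs of copies were compared by their ratio within libraries. Ratios of reads carry exact conditional intervals. Copies of a locus may share reads. The smallest two-sided p of an exact permutation test on 1 gene in this design is 0.333. Replicate pairs differed by more than sampling noise (chi-square per degree of freedom 10.2 and 9.30), and the labels do not say whether they came from separate plantings, so p-values measure the spread between these libraries. Plots were drawn with matplotlib 3.10.9.

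The members and gene lists were chosen with earlier results of these data known. All members are named, and from each pathway list the 2 copies that rose most and the 2 that fell most by log2 fold change among those called, not overlapping and above 50 normalized counts in the higher condition; other list genes named were chosen after their values were seen. Alternatives were other scalings, filters and pseudocounts, 1 subtracted from each value, voom weights, a replicate block and each library left out. Sequences, positions and gene lengths were not used, so reads and shares of reads of different genes or copies cannot be compared as expression levels.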

Additional observations from a re-analysis of the deposited data

How the results depend on the processing

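The 3 *FD* copies kept their calls in all 13 alternatives, with log2 fold changes of -1.65 to -1.45 (Bra010504), -1.07 to -0.62 (Bra011648, adjusted p up to 0.0499) and -1.15 to -0.98 (Bra017735, up to 0.0387). Bra002090 kept its call in the 10 in which it could be tested (-2.06 to -1.76). It passed the filter only through the 0D Ver libraries. It was therefore not tested with at least 10 counts in every library or without either 0D Ver library. Without the filter on low counts, 3 copies were called higher (0 with it) and the *TFL1* sum of 1.02 was called (adjusted p = 0.0388). With 1 subtracted from each value that sum was 1.63 (adjusted p = 0.0282) and the *FT* and *TSF* sum 3.39 (2.12 before). At least 500 normalized counts in place of 50 left 0 copies past the thresholds (2 before), and no fold threshold gave 3. With at least 10 counts in every library, 1 target fell (2 before) and 4 rose (6 before). With each library left out in turn, an arm has 1 library, whose spread is taken from the other arm. Then 3 to 4 members fell, 1 to 2 met the thresholds (1 without 0D Ver replicate 1), 4 to 7 upstream regulators and 4 to 7 targets rose, 1 to 2 targets fell, and the difference of Bra011648 minus Bra017735 was -0.093 to 0.49. The *FD* sum gave -1.28 to -1.03, and 8185 to 9534 genes were called. The other sums passed the filter in part of these fits: *FDP* gave -1.83 to -1.68 without a 35D Ver library, and without a 0D Ver library *FT* and *TSF* gave 1.76 to 2.49 and *TFL1* 0.76 to 1.28. The cause of these shifts was not tested.

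Libraries with the same replicate number did not deviate together (correlation -0.17 across genes). With the number as a block, 4 copies fell, 0 rose and 10334 genes were called (12042 without it), and no call of a member changed. With the numbers crossed, added after seeing the data, 9 partners rose (5 before), 6 targets fell (2 before) and 14317 genes were called. Copies with under about 10 reads per library are limited by depth.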

Other observations

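The *SPL5* copies, chosen for description after their values were seen, included 2 that rose and 1 that fell. *SPL5* is a small SPL transcription factor gene that promotes floral fate in Arabidopsis and is a target of the FT and FD complex there. Bra021094 rose, with 25.6 and 23.7 normalized counts under 35D Ver and 7.85 and 7.32 under 0D Ver (log2 fold change 1.58, adjusted p = 0.00328, limma), and Bra027265 rose, with 33.0 and 27.3 under 35D Ver and 7.85 and 9.76 under 0D Ver (1.67, adjusted p = 0.00248). Both passed the filter on low counts only through the 35D Ver libraries, where they are high, and were not tested with at least 10 counts required in every library. Bra038101 fell, with 8.24 and 19.1 under 35D Ver and 33.4 and 42.7 under 0D Ver (-1.51, adjusted p = 0.0144), but was not called without 35D Ver replicate 1 or without 0D Ver replicate 2 (adjusted p up to 0.0848). The differences between copies, 3.09 (95% interval 1.45 to 4.73) for Bra021094 minus Bra038101 and 3.17 (1.44 to 4.91) for Bra027265 minus Bra038101, missed the threshold over all pairs of copies (adjusted p = 0.0686 and 0.0709). Of the 55 pairs of copies in the 3 pathway lists, 4 passed, close to the 7.3% of all pairs of copies that did. They included Bra001422 minus Bra034808 of *SYP121* (-1.01, adjusted p = 0.0417, limma) and Bra013958 minus Bra023629 of *LHP1* (1.00, adjusted p = 0.0449). The others were of *AREB3*, Bra003253 minus Bra007274 (0.46, adjusted p = 0.0409) and minus Bra007276 (0.48, adjusted p = 0.0401).

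Among markers of floral organs, which summed to 104 and 97.5 normalized counts under 35D Ver and 70.6 and 62.2 under 0D Ver, the petal and stamen gene *PI* rose, with 63.2 and 55.6 under 35D Ver and 24.5 and 24.4 under 0D Ver (log2 fold change 1.24, adjusted p = 0.00403). *AP3*, its partner in specifying these organs, had 16.5 and 10.9 under 35D Ver and 30.4 and 20.7 under 0D Ver and did not pass (-0.86, adjusted p = 0.0774). *SEP2*, which passed the filter only through the 35D Ver libraries, rose by 1.28 on the log2 scale (adjusted p = 0.0199) but was not called without 0D Ver replicate 1 (adjusted p = 0.0971). *AG*, the other floral organ marker in the sum, overlapped between the conditions and did not pass (-0.11, adjusted p = 0.844). The 2 matched seed markers summed to 10.1 and 11.9 under 35D Ver and 30.4 and 41.5 under 0D Ver. The lower sum under 35D Ver came from *OLEO1* alone (log2 fold change -2.02, adjusted p = 0.00355, limma). *CRU1* was at 4.58 and 1.82 under 35D Ver and 1.96 and 2.44 under 0D Ver, so it overlapped, and it was not tested.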
